A study of Homo sapiens with 6 samples.

Results

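CD36 and 8 other genes of lipid uptake were followed in TF-1, a human acute myeloid leukaemia line of erythroid character that needs a cytokine to grow. The members were CD36, SCARB1 and SCARB2 (class B scavenger receptors), VLDLR, LRP8 and LRP1 (the LDL receptor family), SLC27A1 and SLC27A4 (fatty acid transport proteins) and FABP5 (a cytosolic fatty acid carrier). They were listed by symbol, and every probe set annotated to a listed symbol was taken. This gave 10 probe sets of 28869 on the array. Where a gene had several, the probe set was to be chosen by its highest mean log2 intensity over all 6 arrays. Of the 9 genes, 8 had a probe set of their own, exactly 1 each, so this choice did not arise for them. They were tested among 18377 genes. FABP5 was read only by probe sets shared with its pseudogene FABP5P3 and is described apart.

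The tested cells were TF-1 transfected with human PRL-3, the tyrosine phosphatase encoded by PTP4A3 (3 arrays, numbered 4 to 6). They were set against TF-1 transfected with the control vector pEGFP (3 arrays, numbered 1 to 3). Both kinds of cell were kept in RPMI medium supplied with serum and human interleukin-3, and total RNA was measured. The study's question was the role of PRL-3 in leukaemia. The labels do not say whether either transfected line was a clone or a pool, nor that separate cultures were used within a group. The p-values therefore reflect array-to-array spread, part or all of which may be technical.

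Cells take up lipid by several routes. Scavenger receptors and transport proteins of the plasma membrane move long-chain fatty acids inwards, receptors of the LDL receptor family carry whole lipoprotein particles into endosomes, and SCARB1 takes cholesteryl ester from HDL without engulfing the particle. Inside the cell, fatty acids are bound by small carrier proteins and joined to coenzyme A before they are burned or stored. In blood, CD36 is known as a surface protein of platelets, monocytes and erythroid progenitors, and it is commonly used to sort the last of these.

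PTP4A3, the transfected gene, read 10.84 ± 0.076 in PRL-3 arrays and 7.97 ± 0.056 in control arrays (log2 intensity, SD, n = 3 each), and every PRL-3 array was above every control array. Median intensities ran from 89.8 to 92.9 over the 6 arrays. Log2 values of array pairs correlated across genes at r = 0.986 to 0.996 within groups and at 0.977 to 0.986 between groups, which is a description, since genes are not independent. A single direction held 0.639 of the within-group variance, and along it PRL-3 5 and control 1 lay together at one end, with control 3 at the other. Of the marker genes of TF-1, 9 of 10 were measured, and their mean intensities lay between the 53.0 and 99.9 percentile of all genes; CD33 was not analysed here. In limma, KIT (1.01, adjusted p = 0.000721) and CSF2RA (0.27, adjusted p = 0.0407) were higher with PRL-3 and TFRC (-0.52, adjusted p = 0.00273) was lower. CSF2RA lost its call whichever array was left out (adjusted p from 0.0695 without control 3 to 0.149 without control 2, limma).

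Of the 8 genes with a probe set of their own, CD36 was lower with PRL-3, VLDLR was higher, and 6 did not pass an adjusted p of 0.05 in limma. Over all 18377 genes 3.11% were called lower and 4.58% higher, 7.69% in either direction. The median difference of the 8 genes was 0.014 on the log2 scale, and that of all genes was -0.015. CD36 and VLDLR had already been selected on this same difference in an earlier analysis of these arrays. Their values are therefore a description of these arrays and no independent evidence.

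**Figure D1:**
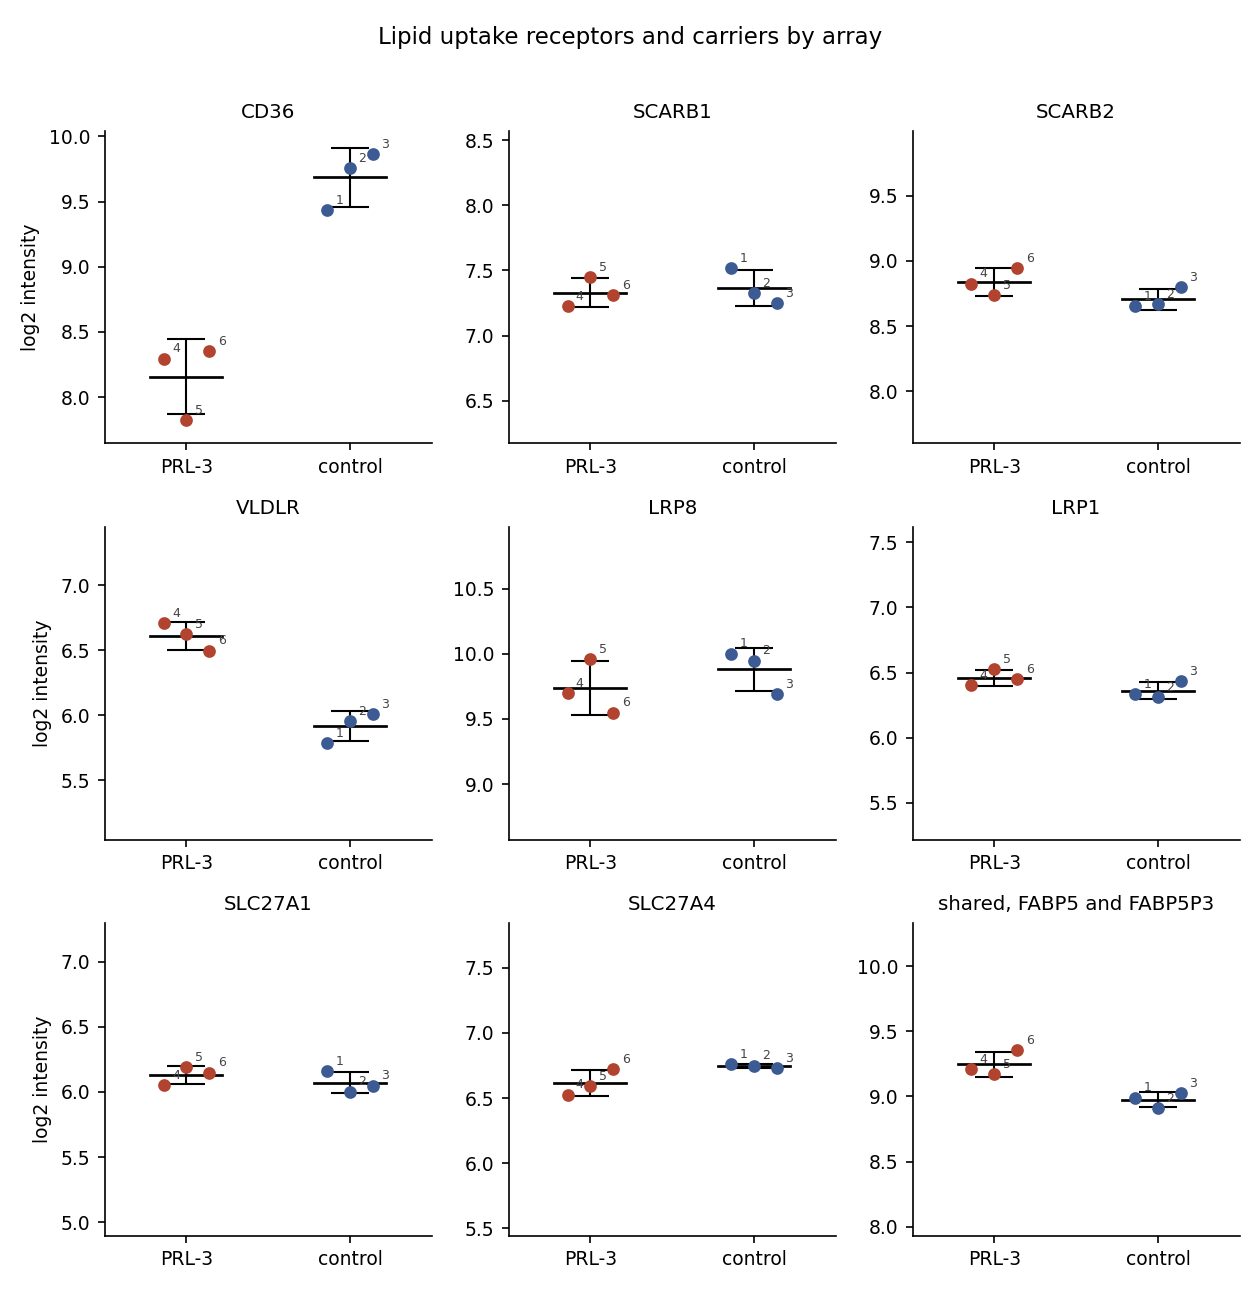
Log2 intensity (y axis) of each gene in the PRL-3 arrays (red, left) and the control arrays (blue, right); each point is 1 array with its number, the long line is the mean and the bars are SD (n = 3). Every panel spans the same 2.4 log2 units. CD36 sits lower and VLDLR higher in the PRL-3 arrays, while the groups of SCARB1, SCARB2, LRP8, LRP1 and SLC27A1 overlap.

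CD36 was the member with the largest change. It read 8.30, 7.82 and 8.35 in PRL-3 arrays 4, 5 and 6, against 9.43, 9.76 and 9.86 in control arrays 1, 2 and 3 (log2 intensity). On the deposited scale these were intensities of 314, 227 and 327 with PRL-3 and 692, 867 and 932 with control vector. Every PRL-3 array lay below every control array, and the lowest array of each group was PRL-3 5 and control 1, the pair that lay together in the within-group direction. The means were 8.16 ± 0.29 with PRL-3 and 9.69 ± 0.22 with control vector (SD, n = 3 each). The difference was -1.53 ± 0.16 (log2, SE), with a 95% interval from -1.90 to -1.16 and adjusted p = 0.00153 in limma, which is 2.89-fold lower. It was the third-largest fall among all genes tested. By exact permutation of its 6 values the two-sided p was 0.1, and 3 arrays against 3 allow none smaller. Without PRL-3 5 and control 1 together, a setting chosen after seeing the data, CD36 differed by -1.49 (adjusted p = 0.000275, limma). In RNA from a whole culture, fewer cells with CD36 and less CD36 RNA per cell cannot be told apart.

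SCARB1 and SCARB2, the relatives of CD36 in the class B family, did not pass. SCARB1, the HDL receptor, read 7.23, 7.45 and 7.31 in PRL-3 arrays and 7.52, 7.32 and 7.25 in control arrays, and the groups overlapped. The SCARB1 difference was -0.034 ± 0.094 (log2, SE), with a 95% interval from -0.25 to 0.18 and adjusted p = 0.908 in limma. Its sign turned without PRL-3 4 (0.017) or without control 1 (0.043). SCARB2, a lysosomal membrane protein that brings glucocerebrosidase to lysosomes, read 8.82, 8.74 and 8.95 in PRL-3 arrays and 8.65, 8.67 and 8.80 in control arrays. Control 3 lay between PRL-3 5 and PRL-3 4, so the groups overlapped. The SCARB2 difference was 0.13 ± 0.081 (log2, SE), with a 95% interval from -0.056 to 0.32 and adjusted p = 0.451 in limma. Array weights, which are tuned on the spread of these same arrays, brought SCARB2 to 0.19 with adjusted p = 0.0492. The intervals of both lie far from the 2.89-fold fall of CD36, but the differences between the 3 genes' responses were not tested.

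VLDLR, which binds triglyceride-rich lipoproteins through apolipoprotein E and also the secreted glycoprotein reelin, was the member that rose. It read 6.71, 6.62 and 6.50 in PRL-3 arrays, against 5.79, 5.96 and 6.01 in control arrays (log2 intensity). Every PRL-3 array lay above every control array. The means were 6.61 ± 0.11 with PRL-3 and 5.92 ± 0.12 with control vector (SD, n = 3 each). The difference was 0.69 ± 0.088 (log2, SE), with a 95% interval from 0.49 to 0.89 and adjusted p = 0.00352 in limma, a 1.61-fold rise, and the exact two-sided permutation test again gave p = 0.1. With 1 array left out the VLDLR difference stayed between 0.62 and 0.75. Without PRL-3 5 and control 1 together it was 0.62 (adjusted p = 0.0131, limma). The table gave no detection call, and the mean of VLDLR lay at the 33.9 percentile of all genes. Probe sets differ in their response, so this ranks no gene, and the deposited intensity of a dim probe set can understate a change.

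LRP8 and LRP1 did not pass. LRP8, the second reelin receptor of the family and a receptor for selenoprotein P, read 9.70, 9.96 and 9.55 in PRL-3 arrays and 10.00, 9.95 and 9.69 in control arrays. The groups overlapped, and PRL-3 5 read as high as control 2. The LRP8 difference was -0.15 ± 0.12 (log2, SE), with a 95% interval from -0.43 to 0.14 and adjusted p = 0.604 in limma. With array weights LRP8 was called lower (-0.26, adjusted p = 0.0392). LRP1, a large endocytic receptor for apolipoprotein E and for protease and inhibitor complexes, read 6.41, 6.53 and 6.45 in PRL-3 arrays and 6.34, 6.31 and 6.44 in control arrays. The LRP1 difference was 0.099 ± 0.071 (log2, SE), with a 95% interval from -0.064 to 0.26 and adjusted p = 0.528 in limma.

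Neither fatty acid transport protein passed. SLC27A1, a membrane protein that also joins fatty acids to coenzyme A, read 6.05, 6.19 and 6.15 in PRL-3 arrays and 6.16, 6.001 and 6.05 in control arrays. The SLC27A1 difference was 0.062 ± 0.074 (log2, SE), with a 95% interval from -0.11 to 0.23 and adjusted p = 0.736 in limma. SLC27A4, its relative, read 6.53, 6.59 and 6.72 in PRL-3 arrays and 6.76, 6.75 and 6.73 in control arrays. All 3 PRL-3 arrays lay below the control arrays, but PRL-3 6 read 6.722 and control 3 read 6.730. The SLC27A4 difference was -0.13 ± 0.073 (log2, SE), with a 95% interval from -0.30 to 0.034 and adjusted p = 0.374 in limma. Groups that do not overlap were common, at 24.3% of all genes. Among the 8 members there were 3 such genes, namely CD36, VLDLR and SLC27A4.

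**Figure D2:**
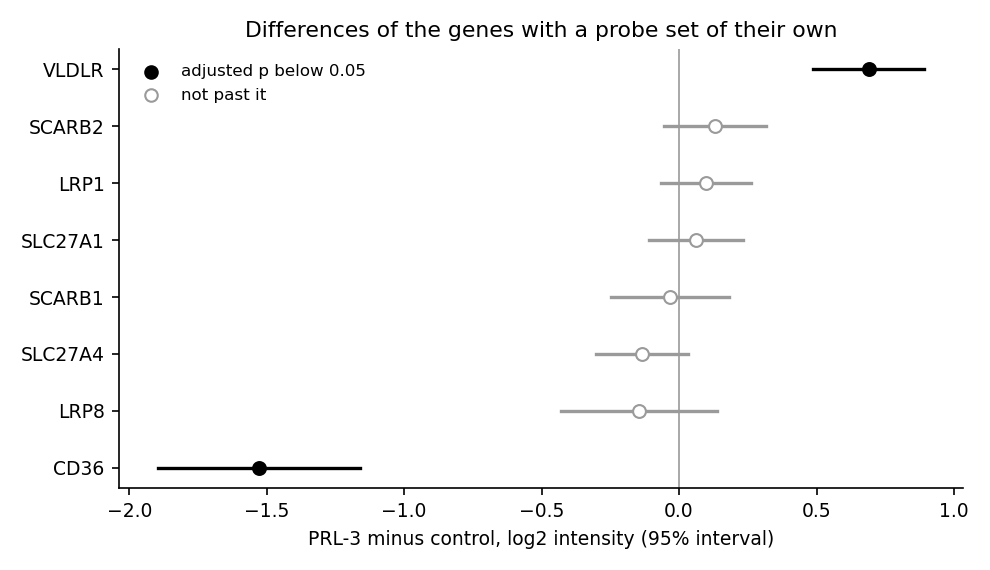
Difference in log2 intensity, PRL-3 minus control (x axis), of the 8 genes with a probe set of their own; points are limma estimates and lines their 95% intervals (3 arrays a group). VLDLR at 0.69 and CD36 at -1.53 are past an adjusted p of 0.05 (filled), and the intervals of the other 6 genes include 0.

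The probe sets annotated to both FABP5 and FABP5P3 cannot be assigned to either. The brighter of them (7948420) read 9.21, 9.17 and 9.35 in PRL-3 arrays and 8.99, 8.91 and 9.02 in control arrays (log2 intensity). All PRL-3 arrays were above all control arrays. Its difference was 0.27 ± 0.072 (log2, SE) in a limma fit of all 28869 probe sets, where 4.85% were called, and its adjusted p was 0.0936. The other shared probe set (8147049) differed by 0.27 ± 0.075 with adjusted p = 0.103 in the same fit. Both carry the same annotation and read almost the same values, so they are not separate checks of each other.

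RefSeq promoter windows on GRCh38.p14 were taken for 7 members, in each case the 250 bases before a transcription start. No window of SCARB1 or FABP5 was used. CD36 had 6 starts, and its windows overlap in part. The windows at the first start of CD36 and the start of VLDLR, the called members, are printed in 5′ to 3′ direction. Capitals mark CG dinucleotides. The CD36 window is chr7:80601957-80602206 and the VLDLR window is chr9:2621537-2621786, both on the plus strand.
CD36: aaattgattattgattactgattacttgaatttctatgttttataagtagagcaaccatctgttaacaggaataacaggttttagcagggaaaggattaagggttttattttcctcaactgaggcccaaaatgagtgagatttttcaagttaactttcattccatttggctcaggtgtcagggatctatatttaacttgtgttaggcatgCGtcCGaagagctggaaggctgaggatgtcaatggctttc
VLDLR: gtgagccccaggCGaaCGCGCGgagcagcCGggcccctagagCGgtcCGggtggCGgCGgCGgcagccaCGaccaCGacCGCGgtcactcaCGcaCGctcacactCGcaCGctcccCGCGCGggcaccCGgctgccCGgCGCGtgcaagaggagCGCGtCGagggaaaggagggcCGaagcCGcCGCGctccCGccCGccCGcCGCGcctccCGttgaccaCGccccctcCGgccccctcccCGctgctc

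The printed CD36 window was 37.2% G and C with 2 CG dinucleotides, and the VLDLR window was 78.8% with 41. All 6 CD36 windows held 31.2 to 43.2% G and C and 1 or 2 CG dinucleotides. The windows of VLDLR, LRP1, LRP8, SCARB2, SLC27A1 and SLC27A4 held 67.6 to 80.8% and 20 to 41. Of all 35114 windows, 19.4% were as poor in G and C as the richest CD36 window or poorer. Windows as rich as the poorest of the other members, or richer, made up 26.3%. LRP1, LRP8, SCARB2, SLC27A1 and SLC27A4 did not pass, and a link between base composition and the differences was not tested. Motifs were searched on both strands. A GATA type motif (AGATAA or TGATAA) stood in 2 of the 6 CD36 windows, which overlap each other, in 0 of the 6 windows of the other members, and in 14.6% of all windows. The ATF4 type motif TGATGNAA, found in 3.14% of all windows, stood in 0 of the 6 CD36 windows and 0 of the 6 others. These are matches of letters in a short stretch, and binding was not tested. Of the GATA factors among the TF-1 markers, GATA1 differed by -0.081 and GATA2 by 0.47 on the log2 scale. Neither passed (adjusted p = 0.885 and 0.112, limma), though for GATA2 every PRL-3 array was above every control array. The array gave 1 value for CD36 and does not tell its starts apart.

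Beyond the members, 9 lists of lipid uptake and handling held 153 genes, of which 137 were measured. With PRL-3, 13 (9.49%) were higher, 7 (5.11%) were lower and 117 did not pass, at a median difference of -0.025 on the log2 scale. Over all genes tested 4.58% were higher and 3.11% lower. VLDLR is among the 13 and CD36 among the 7, and both had been selected on this same difference. The lists were chosen with earlier results of these data known, so the shares are a description and no evidence about lipid handling. No list was tested as a set. In the text on these lists, each number in brackets after a gene is its log2 difference, PRL-3 minus control, with limma's adjusted p.

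In the LDL receptor family and its adaptors 5 of 17 measured genes were higher and 0 lower, with a median of 0.19, where 4.58% of all genes were higher. VLDLR, selected on this difference, is among the 5. LRP2, a large endocytic receptor best known from the kidney, moved most (0.95, adjusted p = 0.000494, limma). It averaged 6.73 ± 0.041 in PRL-3 arrays and 5.79 ± 0.11 in control arrays (log2 intensity, SD, n = 3 each), and every PRL-3 array was above every control array. The mean of LRP2 lay at the 33.7 percentile of all genes, and no detection call was given. VLDLR followed, then LRP12 (0.63, adjusted p = 0.00223) and DAB2, the endocytic adaptor that links receptors of this family to clathrin (0.54, adjusted p = 0.0336). LRP11 (0.42, adjusted p = 0.0197) completes the 5 and was named after its value was seen. DAB2 lost its call in limma without PRL-3 4, PRL-3 5, PRL-3 6 or control 2 (adjusted p of 0.133, 0.0736, 0.0758 and 0.137), and LRP11 without PRL-3 4 or control 2 (0.0925 and 0.0988). The receptors LRP1B, LRP3, LRP4, LRP5, LRP6, LRP10 and SORL1 did not pass. Nor did LRPAP1, the reelin adaptor DAB1, and MYLIP, a ubiquitin ligase that sends VLDLR and LRP8 to degradation. The values of these genes ran from -0.13 for DAB1 to 0.30 for MYLIP and 0.32 for SORL1 (adjusted p = 0.0703, limma).

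Among scavenger receptors 1 of 16 was higher and 2 were lower, with a median of -0.045. CD68, a protein of late endosomes and lysosomes in myeloid cells, was the higher one (0.91, adjusted p = 0.00259), and it read 8.79 ± 0.15 in PRL-3 arrays and 7.87 ± 0.16 in control arrays (log2 intensity, SD, n = 3 each). COLEC12, a scavenger receptor with a collagen stem, was lower beside CD36 (-0.44, adjusted p = 0.019), but not without PRL-3 4, PRL-3 6 or control 2 (adjusted p of 0.0806, 0.0742 and 0.097, limma). MSR1, MARCO, OLR1 and CD163, scavenger receptors of macrophages, did not pass (0.032, -0.095, -0.045 and -0.024).

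Among fatty acid transporters and binding proteins 1 of 15 was higher and 1 lower, with a median of -0.038. The lower one was CD36 and the higher one was DBI, the acyl-CoA binding protein (0.33, adjusted p = 0.0355). DBI lost its call without PRL-3 4, PRL-3 6, control 1 or control 2 (adjusted p of 0.136, 0.141, 0.102 and 0.145, limma). The other transport proteins SLC27A2, SLC27A3, SLC27A5 and SLC27A6 did not pass (-0.21, -0.16, 0.024 and -0.054).

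**Figure D3:**
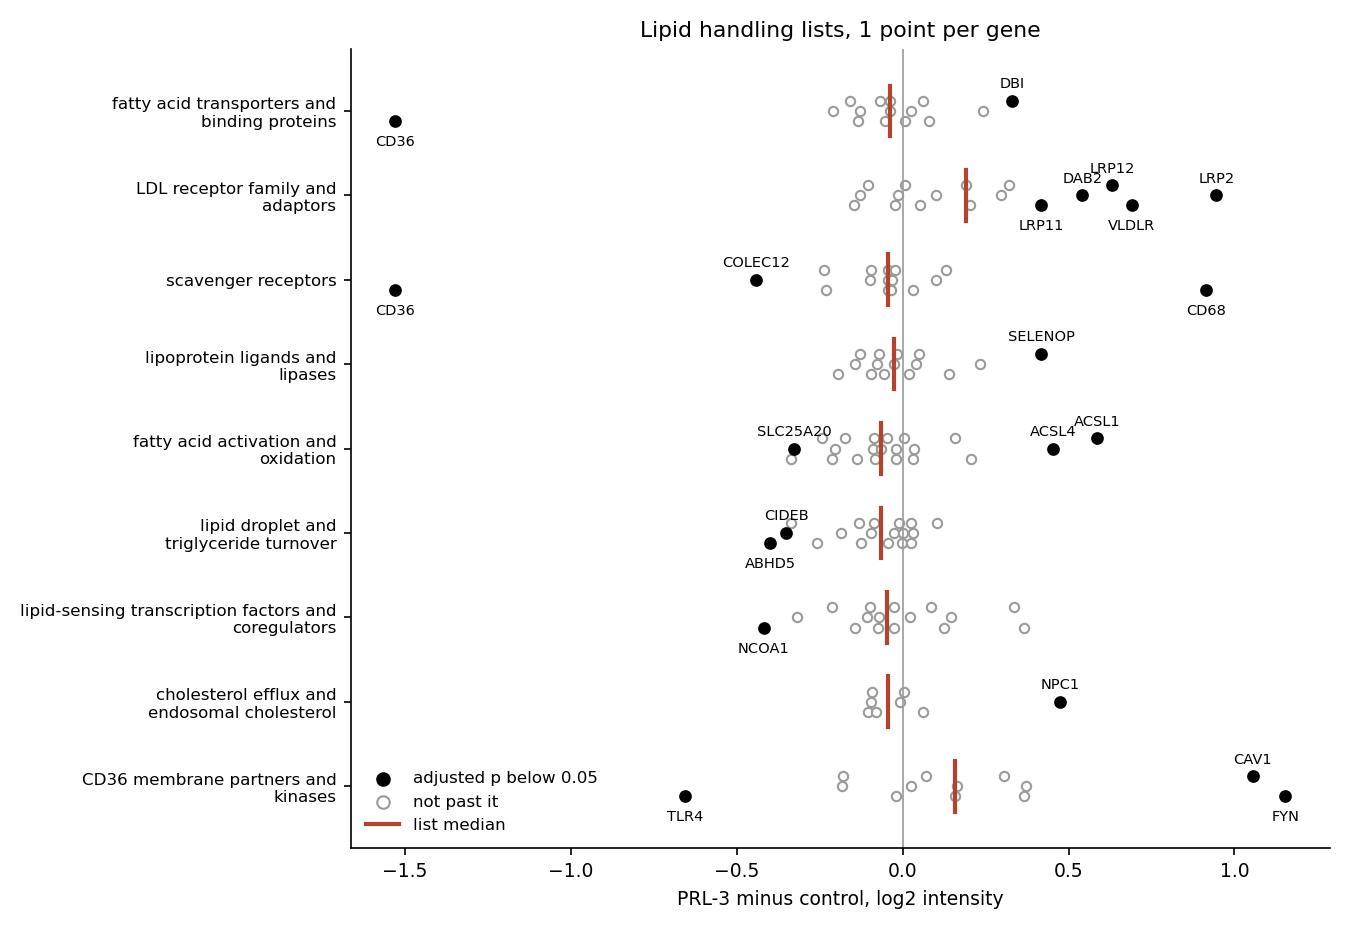
Difference in log2 intensity, PRL-3 minus control (x axis), of the measured genes of 9 lipid handling lists (y axis); each point is 1 gene, filled and named where adjusted p in limma is below 0.05, and the red line is the list's median. The LDL receptor family lies furthest to the right with a median of 0.19, and CD36 at -1.53 stands apart from the other genes of both lists that hold it.

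In the list of fatty acid activation and oxidation 2 of 21 genes were higher and 1 was lower, with a median of -0.064. ACSL1 (0.59, adjusted p = 0.00766) and ACSL4 (0.45, adjusted p = 0.00669), both long-chain acyl-CoA synthetases, were the higher ones, while ACSL5 and ACSL6 did not pass (0.030 and -0.064). ACSBG1, an acyl-CoA synthetase outside the list that was added after its value was seen, was lower (-0.88, adjusted p = 0.00127, limma). SLC25A20, which carries acylcarnitines into mitochondria, was lower (-0.33, adjusted p = 0.0379). It lost its call without PRL-3 4, PRL-3 6, control 1 or control 2 (adjusted p of 0.154, 0.121, 0.117 and 0.131, limma). CPT1A and CPT2, the carnitine palmitoyltransferases that act before and after it, did not pass (-0.34 and -0.21).

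Lipid droplet genes were lower in 2 of 18 and higher in 0, with a median of -0.065. They were ABHD5, which activates the triglyceride lipase PNPLA2 (-0.40, adjusted p = 0.0132), and CIDEB (-0.35, adjusted p = 0.0281). ABHD5 lost its call without PRL-3 4, PRL-3 6 or control 2 (adjusted p of 0.0691, 0.05005 and 0.0683, limma), and CIDEB without any array but control 3 (0.0582 to 0.127). PLIN2, a coat protein of lipid droplets, did not pass (-0.26, adjusted p = 0.0783).

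Among lipoprotein ligands and lipases 1 of 15 was higher and 0 were lower, with a median of -0.027. It was SELENOP, the plasma selenium carrier that LRP8 and LRP2 bind (0.42, adjusted p = 0.0128). Its mean lay at the 4.81 percentile of all genes, and it lost its call without PRL-3 4 or PRL-3 6 (adjusted p of 0.0694 and 0.0629, limma). The ligands RELN, APOE and THBS1 and the lipase LPL did not pass (-0.058, -0.095, -0.018 and -0.071). In the list of cholesterol efflux and endosomal cholesterol 1 of 8 was higher and 0 lower, with a median of -0.044. It was NPC1, which exports cholesterol from late endosomes (0.47, adjusted p = 0.0401), and it lost its call whichever array was left out (adjusted p from 0.0561 without control 3 to 0.112 without PRL-3 6, limma).

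Among lipid-sensing transcription factors and their coregulators 0 of 16 were higher and 1 was lower, with a median of -0.048. The lower gene was NCOA1, a coactivator of nuclear receptors (-0.42, adjusted p = 0.0298), which lost its call without PRL-3 4, PRL-3 6, control 1 or control 2 (adjusted p of 0.0929, 0.114, 0.0871 and 0.134, limma). PPARG and PPARD, nuclear receptors known to activate CD36 transcription in macrophages, did not pass (0.15 and 0.37). ATF4, a stress factor known to activate VLDLR transcription, did not pass either (0.085). The arrays read RNA, and the protein level and activity of these factors were not measured.

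Proteins known to act beside CD36 in the membrane moved in both directions, with 2 of 13 higher, 1 lower and a median of 0.16. FYN, a SRC family kinase that signals downstream of CD36, was higher (1.15, adjusted p = 0.000394). It averaged 7.95 ± 0.091 in PRL-3 arrays and 6.80 ± 0.13 in control arrays (log2 intensity, SD, n = 3 each). CAV1, the coat protein of caveolae, through which CD36 reaches the surface, was higher as well (1.05, adjusted p = 0.000261), at 6.95 ± 0.042 with PRL-3 and 5.90 ± 0.094 with control vector. The mean of CAV1 lay at the 38.5 percentile of all genes. TLR4, which forms a receptor complex with CD36 and TLR6 for oxidised LDL, was lower (-0.66, adjusted p = 0.00584), and TLR6 did not pass (0.071). The kinases LYN and YES1 did not pass (-0.18 and 0.31), and nor did the palmitoyltransferases ZDHHC4 and ZDHHC5, which modify CD36 (0.16 and -0.18).

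CD36 is also a marker of blood lineages, and the other markers of those lineages were read beside it. Of 9 other erythroid markers measured, 6 were lower with PRL-3 and 0 higher. HBB (-2.15, adjusted p = 3.24e-06) and ALAS2 (-1.17, adjusted p = 0.00125) had the largest differences in limma. The summed intensity of these 9 markers was 7257 to 7391 in PRL-3 arrays and 10825 to 11204 in control arrays. Without TFRC, the brightest of them, the sums were 2482 to 2743 with PRL-3 and 4003 to 4317 with control vector. None of the markers was listed at 0. KLF1 (-0.21), EPB42 (-0.17) and EPOR (-0.081) did not pass. The part of erythroid gene expression as a whole in the fall of CD36 was not tested. AHSP (-0.61, adjusted p = 0.00881), SLC4A1 (-0.45, adjusted p = 0.0094) and RHAG (-0.31, adjusted p = 0.0341) were also lower in limma. RHAG lost its call in 5 of the 6 fits with 1 array left out, all but that without control 3 (adjusted p from 0.0542 to 0.146, limma). SLC4A1 lost it without PRL-3 4 (adjusted p = 0.0502) and AHSP without control 2 (adjusted p = 0.0504, limma). The means of SLC4A1 and AHSP lay at the 31.9 and 35.5 percentile of all genes.

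**Figure D4:**
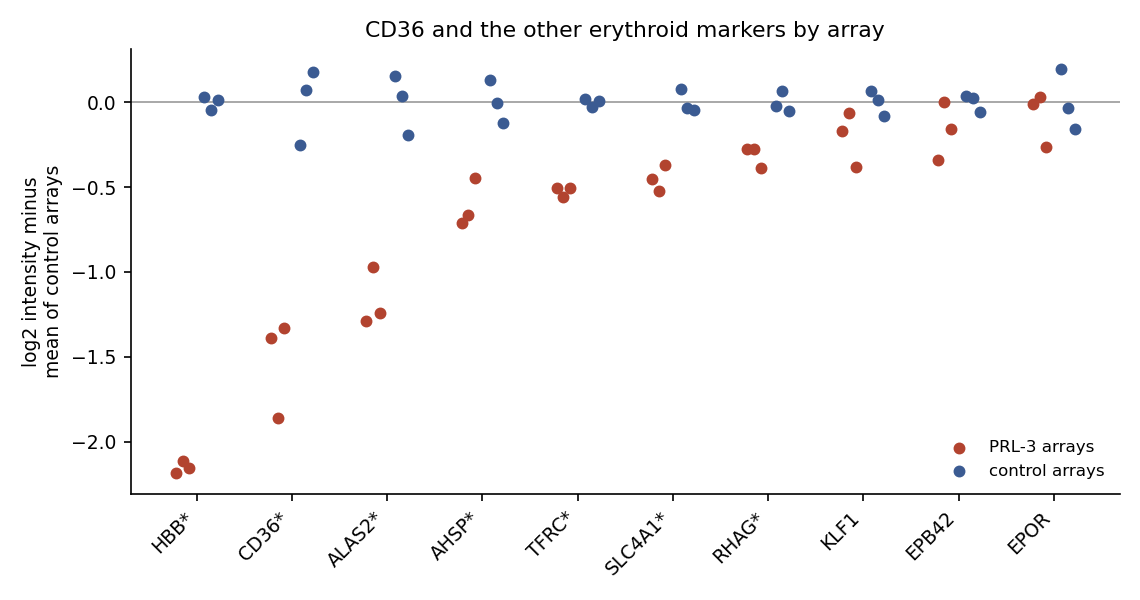
Log2 intensity minus the mean of the control arrays (y axis) for CD36 and the 9 other erythroid markers measured (x axis); each point is 1 array, PRL-3 in red to the left and control in blue to the right, and a star marks an adjusted p below 0.05 in limma. In 7 of the 10 genes, CD36 among them, the star is present and all PRL-3 arrays lie below all control arrays.

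Of the megakaryocyte and platelet markers 2 of 8 were lower and 0 higher, CD36 itself and GP1BA, a chain of the platelet receptor for von Willebrand factor (-0.53, adjusted p = 0.00591). Without CD36 the summed intensity of the other 7 was 989 to 1109 with PRL-3 and 1216 to 1422 with control vector. ITGA2B, the brightest of the 7, did not pass (-0.45, adjusted p = 0.129, limma), and its groups overlapped. GP6, GP9, TUBB1 and PF4 did not pass either (-0.27, -0.23, -0.13 and -0.021). PPBP differed in the other direction and did not pass (0.24). Of the monocyte and macrophage markers 1 of 8 was higher and 1 lower. The lower one was CD36 and the higher one was VCAN (0.69, adjusted p = 0.0129), which lost its call without PRL-3 4 or control 2 (adjusted p of 0.0572 and 0.0745, limma). The mean of VCAN lay at the 23.4 percentile of all genes. Without CD36 the other 7 summed to 818 to 1013 with PRL-3 and 819 to 1031 with control vector, and the groups overlapped. Such a sum weighs its brightest gene most, here LYZ, which did not pass (-0.030). The monocyte markers CD14 and CSF1R did not pass (0.044 and 0.045). Other cell types that carry CD36 or lipoprotein receptors had 0 calls in limma in their marker lists. The sums were 1046 to 1173 with PRL-3 and 1000 to 1143 with control vector for 6 endothelial markers, of which TEK was brightest. They were 328 to 329 with PRL-3 and 335 to 342 with control vector for 6 adipocyte markers. For 6 hepatocyte markers they were 350 to 372 with PRL-3 and 351 to 388 with control vector.

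The genes most like CD36 and VLDLR were sought among the 745 other genes that differed by at least 0.5 on the log2 scale, by Pearson's r of log2 intensity over the 6 arrays. These points share the group difference and the within-group direction, so the values are a description. The search also fixed the direction of change of the genes most like each member. For CD36 they were EPC2, CFI, STAG1, TAS2R10 and ATP8B4, with r = 0.9938 to 0.9944. All 5 were lower with PRL-3, by log2 differences from -0.61 for EPC2 to -0.85 for ATP8B4. For VLDLR they were TPST1, AHNAK, TMSB4XP2, ZFP1 and MYCN, with r = 0.9922 to 0.9955 and differences from 0.51 for ZFP1 to 0.72 for TPST1. TMSB4XP2 is a pseudogene, and its probe set may also read the parent gene.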

How the data were processed

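The authors deposited 1 intensity per probe set and array on a linear scale; how they corrected background, summarised probes and normalized arrays is not given in the sources used here, and the close medians were taken to mean that normalization had been done. Per the labels' protocols, RNA was extracted with a Qiagen RNeasy kit and labelled with Nugen kits. A shift shared by most genes may have been removed.

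The log2 of each intensity was taken with no offset. Of 28869 probe sets, 19310 had 1 gene symbol in the platform annotation, 1752 had several and 7807 had none; 19279 of the first matched the RefSeq gene table by Entrez identifier. The brightest probe set stood for each of 18377 genes. The comparison of groups was two-sided and used lmFit and eBayes of limma 3.58.1 (R 4.3.3), adjusted by Benjamini-Hochberg over all genes, with a threshold of 0.05. The fit was tested on simulated data. FABP5 had no probe set of its own, so its shared probe sets came from a fit of all probe sets. Promoter windows were read from RefSeq sequences. Figures were drawn with matplotlib 3.10.9.

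The members and lists were chosen with earlier results of these data known. The rule named all members, and up to 4 called genes with the largest difference per list. It also named up to 3 called markers per marker list, and the 5 genes most correlated with CD36 and with VLDLR. Beyond this rule, all called genes of the LDL receptor family list and of the erythroid markers were named, as was ACSBG1. Genes given as not passing were picked for their role. Alternatives were quantile normalization, a median shift, robust variances with an intensity trend, weights on arrays, a filter on dim genes, probe sets averaged by gene, an offset of 16, and each array left out. No detection call or batch was given, and the number of arrays limits the precision.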

Additional observations from a re-analysis of the deposited data

How the results depend on the processing

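CD36 and VLDLR kept their direction and their call in every alternative that gave them a value, at -1.65 to -1.36 for CD36 (adjusted p up to 0.0158, limma) and 0.57 to 0.75 for VLDLR (adjusted p up to 0.024, limma). The filter on dim genes gave no value for VLDLR, LRP1, SLC27A1 and SLC27A4 and so left 1 member called. Array weights called 4 members, adding LRP8 (-0.26) and SCARB2 (0.19), and called 2122 genes higher and 2303 lower over the whole array, against 842 and 571 without weights. With 1 array left out, 388 to 792 genes were higher and 178 to 747 lower, with fewer samples, and 2 members were called each time. SCARB1 then ranged from -0.093 to 0.043, changing sign without PRL-3 4 or control 1, and was not called. Without PRL-3 5 and control 1 together, chosen after seeing the data, 757 genes were higher and 409 lower. No paired analysis was possible because the groups share no replicate number. Low intensities have no known floor, so changes in dim genes may be understated. For a gene as dim as SELENOP, expression above background cannot be told without a detection call.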
